A study of Mus musculus with 15 samples.

Results

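The genes described here are 10 receptors by which macrophages take up modified lipoproteins, haemoglobin complexes and dying cells. They were chosen by name, as the scavenger receptors Msr1, Cd36, Scarb1, Cd163, Stab1 and Olr1, the receptors for dying cells Mertk, Axl and Timd4, and the endolysosomal glycoprotein Cd68, out of 78317 gene identifiers in the table of counts. Their messenger RNA was measured in MH-S, a mouse alveolar macrophage line transformed with SV40, in 5 groups of 3 wells. M0 cells received medium alone, M1 cells received LPS at 1 µg/mL with IFN-γ at 20 ng/mL, and M2 cells received IL-4 at 20 ng/mL. The CaP and SiO2 groups received calcium phosphate or silica microrods at 0.1 mg/mL, both built with alginate, protamine and carboxymethyl chitosan, and all groups were harvested after 24 h. Each well of a rod group received a separately prepared particle batch, and per the study's methods the rod wells were of the same cell passage. For the other groups nothing in the sources names separate cultures, so the p-values measure the spread between wells. All cells were of 1 transformed line.

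Scavenger receptors are a functional class rather than a single gene family: Msr1, Cd36, Scarb1, Stab1 and Olr1 bind modified lipoproteins and other polyanionic or lipid ligands, and Cd163 binds the complex of haemoglobin and haptoglobin. Dying cells expose phosphatidylserine, which Timd4 and Stab1 bind directly and which Mertk and Axl bind through the bridging protein Gas6, Mertk also through Pros1. In the lung, alveolar macrophages use such receptors to clear surfactant, inhaled particles and dying cells, and Mertk and Axl are well known on tissue macrophages.

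Promoters of 3 genes are shown because their genes span the range of levels described below, with Cd68 the highest, Cd36 the next and Stab1 the lowest of the genes that could be tested. They run from 250 bases before to 50 bases after the annotated start and were taken from RefSeq on GRCm38.p6, which held 8 of the 10 genes (Msr1 and Scarb1 were not matched). Capitals mark matches to a searched motif.
Cd36 (chr5:17835847-17836146, minus strand): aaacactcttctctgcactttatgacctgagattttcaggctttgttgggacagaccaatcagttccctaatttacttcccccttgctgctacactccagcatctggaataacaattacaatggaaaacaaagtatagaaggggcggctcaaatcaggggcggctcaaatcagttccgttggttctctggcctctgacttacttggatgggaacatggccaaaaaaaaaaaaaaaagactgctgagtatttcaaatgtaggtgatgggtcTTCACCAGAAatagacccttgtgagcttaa
Cd68 (chr11:69666121-69666420, minus strand): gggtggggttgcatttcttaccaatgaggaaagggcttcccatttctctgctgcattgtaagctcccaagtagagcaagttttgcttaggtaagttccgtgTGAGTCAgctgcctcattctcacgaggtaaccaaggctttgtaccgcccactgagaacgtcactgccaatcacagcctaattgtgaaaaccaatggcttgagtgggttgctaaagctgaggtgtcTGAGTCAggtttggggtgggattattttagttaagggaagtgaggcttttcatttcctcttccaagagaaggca
Stab1 (chr14:31168592-31168891, minus strand): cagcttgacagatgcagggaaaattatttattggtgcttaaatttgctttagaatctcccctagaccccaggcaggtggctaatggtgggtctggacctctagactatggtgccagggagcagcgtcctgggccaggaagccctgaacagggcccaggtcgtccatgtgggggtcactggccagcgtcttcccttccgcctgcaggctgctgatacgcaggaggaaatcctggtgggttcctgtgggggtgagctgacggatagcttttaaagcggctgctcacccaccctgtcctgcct

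Motifs known for STAT, PU.1, AP-1 and TATA-binding proteins were searched on both strands. The Cd36 window held 1 match to the N4 palindrome known for STAT6 (TTC and GAA around 4 free bases), at positions 21 to 30 after the start, and 6.95% of 32851 RefSeq windows of the same length held this motif. The Cd68 window held 2 matches to TGACTCA, which appears as its reverse complement in the printed strand, and 5.2% of all windows held it. No match was present in the Stab1 window to these motifs or to TTCNNNGAA (in 8.3% of all windows), GAGGAAGT (3.2%) or TATAAA (13.6%). A match describes letters only, and binding was not measured.

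The libraries differed in depth, from 8459643 to 68750050 counts. M0 replicate 3, M2 replicate 2 and SiO2 replicate 2 stood apart from their groups on the second principal component, with scores of -42.7, -43.9 and -21.7. Summed macrophage markers lay between 1440 and 3660 CPM, which are counts relative to the TMM-scaled library size, with the lowest sums in M2. Cd68, itself among the receptor genes, is part of this sum. The markers did not move together: Lyz2 averaged 368 CPM in M2 and 1844 CPM in M0. Adgre1 averaged 194.6 CPM in M2 and 61.7 CPM in M0. Markers of epithelial cells, fibroblasts and T cells each summed to at most 0.204 CPM in every library, and B cell markers to at most 0.429 CPM. The 4 neutrophil markers summed to 0.776 to 1.71 CPM in M1 and 0.116 to 0.455 CPM in M0, and the 4 endothelial markers to 1.26 to 1.55 CPM in M1, 0.92 to 1.77 CPM in M2 and 0.116 to 0.844 CPM in M0. Their part in the M1 and M2 results was not tested. Siglecf and Marco, which mark alveolar macrophages in tissue, were scarce, with at most 0.477 CPM for Siglecf and 2.81 CPM for Marco, so these markers of the labelled cell type were nearly absent.

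The receptor genes fell into 2 classes of abundance. Counts were present in all 15 libraries for Cd68, Cd36, Scarb1, Msr1 and Stab1, and these 5 genes passed the filter on low counts. Mertk, Axl, Cd163, Olr1 and Timd4 did not. Per kilobase of exon, the median level was 773 CPM for Cd68, 17.9 for Cd36, 4.69 for Scarb1, 3.48 for Msr1 and 0.969 for Stab1, against 0.0283 for Mertk. The other 4 genes had a median of 0.

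**Figure D1:**
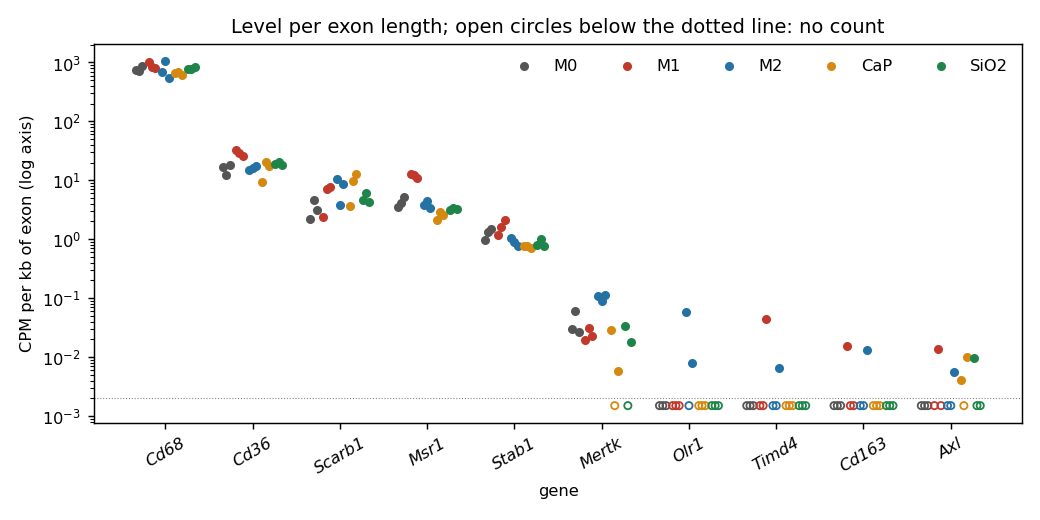
Level of each receptor gene in CPM per kilobase of exon (log axis), with 1 point per library coloured by group and open circles below the dotted line for libraries without a count. Cd68 lies at 538 to 1050 in all libraries, and Axl, Cd163, Olr1 and Timd4 have no count in most of them.

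Msr1, the class A scavenger receptor that binds acetylated and oxidised low-density lipoprotein, was highest in M1. Its level was 82.1, 79.1 and 70.6 CPM in the M1 libraries and 22.1, 26.2 and 32.8 CPM in M0. In M2 it was 24.1, 28.4 and 21.7 CPM, and the M1 libraries lay above those of both other groups. A gene was called where its adjusted p was below 0.05 and its log2 fold change was more than 0.5 away from 0. Msr1 rose 2.88-fold in M1 against M0 (log2 fold change 1.52 ± 0.18 SE, edgeR adjusted p = 6.68e-05) and was 3.15-fold higher in M1 than in M2 (1.65 ± 0.18, edgeR adjusted p = 2.31e-05). Both calls held in 6 of 6 fits that each left out 1 library. Between M2 and M0 the libraries overlapped and the log2 fold change was -0.13 ± 0.18 (edgeR adjusted p = 0.783).

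Cd36, the class B receptor for oxidised lipoprotein, long-chain fatty acids and thrombospondin, was also highest in M1. It measured 115.7, 103 and 91.5 CPM in M1, 60.3, 43.9 and 64.2 CPM in M0 and 53.8, 59.1 and 63.0 CPM in M2. No M1 library overlapped with either group. The rise was 1.84-fold over M0 (log2 fold change 0.88 ± 0.24, edgeR adjusted p = 0.027), and the level was 1.76-fold that of M2 (0.82 ± 0.24, edgeR adjusted p = 0.0346). These calls were less firm than those of Msr1: against M0 the call held in 2 of 6 fits with 1 library left out (adjusted p 0.0409 to 0.103), being lost without M0 1, M0 2, M1 1 or M1 2, and against M2 in 0 of 6 (0.054 to 0.116).

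Stab1, a large receptor that clears phosphatidylserine-bearing cells and extracellular ligands, measured 12.0, 16.4 and 21.4 CPM in M1, 9.97, 13.8 and 15.6 CPM in M0 and 10.7, 9.07 and 7.89 CPM in M2. M1 and M0 overlapped (log2 fold change 0.36 ± 0.24, edgeR adjusted p = 0.352), while all M1 libraries lay above all M2 libraries. Stab1 was 1.81-fold higher in M1 than in M2 (0.86 ± 0.24, edgeR adjusted p = 0.0252), a call that held in 2 of 6 fits with 1 library left out (adjusted p 0.012 to 0.127) and was lost without M1 2, M1 3, M2 2 or M2 3. Exons of Stab1 overlap those of Nt5dc2 on the opposite strand, and the library protocol does not mark strand, so reads of the pair cannot be fully told apart. Nt5dc2 itself had 36 to 354 counts per library.

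Scarb1, the receptor for high-density lipoprotein that also mediates selective uptake of cholesteryl ester, varied most between wells among the 5 tested genes. It measured 19.0, 39.9 and 26.4 CPM in M0, 20.4, 61.0 and 66.6 CPM in M1 and 88.6, 31.9 and 73.9 CPM in M2. The coefficient of variation was 37.3% in M0, 51.1% in M1, 45.4% in M2, 53.4% in CaP and 19.5% in SiO2. The M2 against M0 difference was 1.20 ± 0.51 on the log2 scale (edgeR adjusted p = 0.237, unadjusted 0.0334) and overlapped between the groups. It was the only 1 of the 5 tested genes with an unadjusted p below 0.05 in that comparison.

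Cd68, a glycoprotein of endosomes and lysosomes widely used to stain macrophages, was the most abundant of the 10 genes. It measured 921, 911 and 1101 CPM in M0, 1267, 1051 and 1017 CPM in M1 and 862, 1320 and 676 CPM in M2. The groups overlapped, with log2 fold changes of 0.19 ± 0.20 for M1 against M0 and -0.04 ± 0.20 for M2 against M0 (edgeR adjusted p = 0.572 and 0.948). For M1 against M2 it was 0.22 ± 0.20 (edgeR adjusted p = 0.46), and it was larger without M2 replicate 2, the highest library, at 0.43 (edgeR adjusted p = 0.0449). Without that library, M0 replicate 3 and SiO2 replicate 2 it was 0.53 and called (edgeR adjusted p = 0.032), where 5264 of 17462 genes were called.

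In M1 against M0, 2 of the 5 tested receptor genes were called, both higher, where 14.1% of all genes tested were called and 9.7% were called higher. DESeq2 also called 2 (16.8% of all genes). In M1 against M2, 3 were called, all higher, against 16.1% of all genes called and 10.6% called higher, and DESeq2 also called 3 (17.1%). In M2 against M0, 0 were called by edgeR and 0 by DESeq2, against 4.13% of all genes with edgeR and 5.97% with DESeq2. An unadjusted p below 0.05 was reached by 2, 3 and 1 of the 5 genes in M1 against M0, M1 against M2 and M2 against M0, beside 27.7%, 29.8% and 17.2% of all genes. The libraries did not overlap for 2 genes in M1 against M0 (32.2% of all genes), 3 in M1 against M2 (29.4%) and 0 in M2 against M0 (15.2%). The median log2 fold change of the 5 genes was 0.80, 0.82 and -0.04 in these comparisons, beside -0.01, -0.04 and 0.07 over all genes. The comparisons share the M0 or M1 libraries and are not independent.

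**Figure D2:**
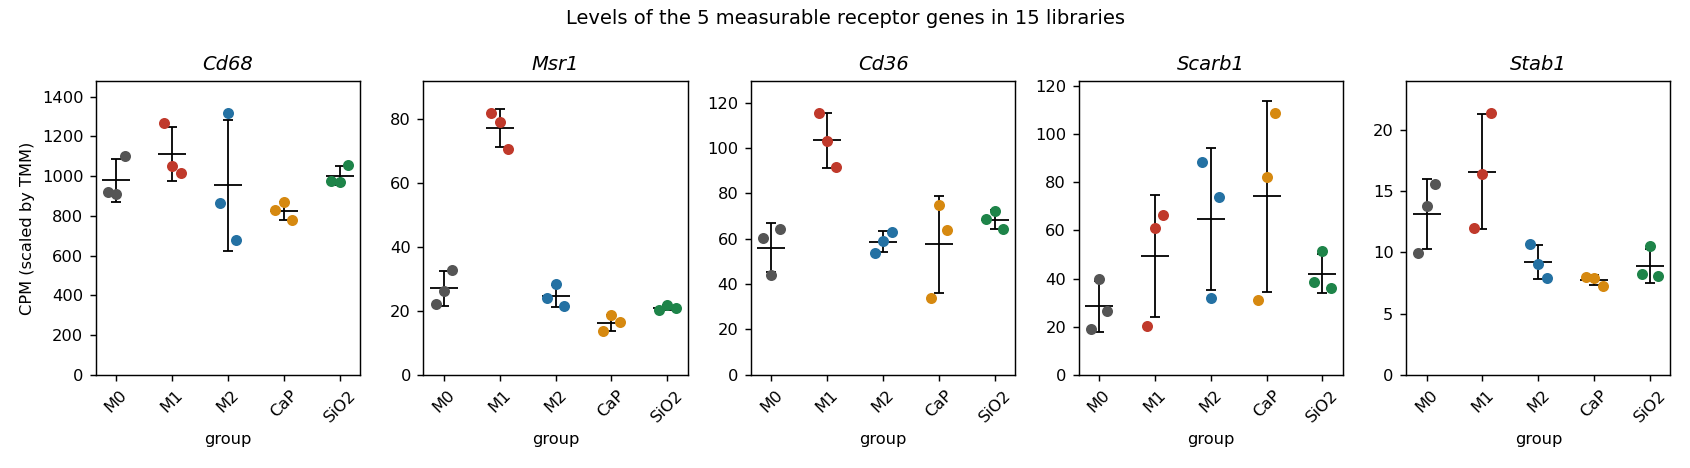
Levels in CPM of the 5 testable receptor genes in each of the 15 libraries, with 1 point per library and bars at the mean ± SD of each group of 3. Msr1 and Cd36 are highest in M1, and Scarb1 has the widest spread within groups.

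The microrod groups were compared with M0 in a model of the 9 M0, CaP and SiO2 libraries. Msr1 was lower with both rods, at 13.7, 18.6 and 16.5 CPM with CaP and 20.2, 21.9 and 20.9 CPM with SiO2, and neither group overlapped with M0. The SiO2 gap was narrow, with 21.9 CPM in SiO2 replicate 2 and 22.06 CPM in M0 replicate 1. The log2 fold change was -0.73 ± 0.19 for CaP (edgeR adjusted p = 0.125) and -0.36 ± 0.19 for SiO2 (edgeR adjusted p = 0.62), and neither passed the threshold.

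Stab1 measured 8.03, 7.94 and 7.24 CPM with CaP, below every M0 library, and 8.21, 10.5 and 8.03 CPM with SiO2, which overlapped with M0. The log2 fold changes were -0.75 ± 0.21 (edgeR adjusted p = 0.142) and -0.55 ± 0.22 (edgeR adjusted p = 0.492). Leaving out M0 replicate 3, the M0 library with the highest Msr1 and Stab1, gave -0.59 for Msr1 and -0.62 for Stab1 in CaP against M0. These were the smallest changes among the 6 fits with 1 library left out. The largest were -0.89 for Msr1 and -0.95 for Stab1, and 0 of the 6 fits called either gene.

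Scarb1 measured 31.1, 82.3 and 109 CPM with CaP and 38.7, 51.4 and 36.1 CPM with SiO2. The CaP libraries ranged widely and overlapped with M0, with a log2 fold change of 1.39 ± 0.43 (edgeR adjusted p = 0.154). The gene was called in 1 of 6 fits with 1 library left out, without CaP replicate 1, the lowest of the 3 (1.74, edgeR adjusted p = 0.0318), and the other values went down to 0.98 without CaP replicate 3 (edgeR adjusted p = 0.528). For SiO2 the log2 fold change was 0.57 ± 0.43 (edgeR adjusted p = 0.741).

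Cd36 measured 33.7, 74.8 and 63.9 CPM with CaP and 68.9, 72.3 and 64.3 CPM with SiO2. Its log2 fold change was 0.03 ± 0.27 with CaP and 0.29 ± 0.27 with SiO2, where the SiO2 libraries lay just above those of M0. Cd68 measured 830, 868 and 779 CPM with CaP and 977, 972 and 1058 CPM with SiO2, with log2 fold changes of -0.24 ± 0.13 and 0.04 ± 0.13. The edgeR adjusted p was between 0.346 and 0.97 for these 4 values.

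In CaP against M0, 0 of the 5 tested genes were called by edgeR, where 0.409% of all genes were, and 3 had an unadjusted p below 0.05, where 18% of all genes did. DESeq2 called 2 of them, Msr1 (adjusted p = 0.024) and Scarb1 (adjusted p = 0.0414), where it called 3.9% of all genes. With another tuning of its independent filtering, tried after these results had been seen, it called 3 (4.05% of all genes), since the adjusted p of Stab1 went from 0.0524 to 0.0498. In SiO2 against M0, 0 were called by edgeR (0.0602% of all genes) and 0 by DESeq2 (0.776%), and 1, Stab1, had an unadjusted p below 0.05 (9.27% of all genes). Libraries did not overlap for 3 genes in CaP against M0 (17.4% of all genes) and for 2 in SiO2 against M0 (18%). Both SiO2 cases, Msr1 and Cd36, were narrow. Cd36 was at 64.26 CPM in SiO2 replicate 3 and 64.18 CPM in M0 replicate 3. That gap was smaller than 1 count in M0 replicate 3, which was 0.1156 CPM.

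CaP and SiO2 rods were also set against each other, at the same mass concentration and time. Per the study, the rod types differ in density, so an equal mass concentration holds unequal numbers of rods. The comparison was thus not matched for the number of rods per cell. Of the 5 tested genes, 0 were called by edgeR (0.0241% of all genes) and 0 by DESeq2 (0.0963%), and 0 had an unadjusted p below 0.05 (1.87%). Msr1, Stab1 and Cd68 lay lower with CaP without overlap of the libraries, and 8.1% of all genes did not overlap, in either direction. For Stab1 this was close to a tie, with 8.027 CPM in CaP replicate 1 and 8.032 CPM in SiO2 replicate 3. The gap was smaller than 1 count, which was 0.0205 and 0.0396 CPM in these libraries. The log2 fold change with its 95% interval was -0.38 (-0.81 to 0.05) for Msr1, -0.20 (-0.68 to 0.28) for Stab1, -0.28 (-0.57 to 0.01) for Cd68, -0.26 (-0.87 to 0.35) for Cd36 and 0.82 (-0.12 to 1.76) for Scarb1. All 5 had an edgeR adjusted p of 1, and the intervals use the total degrees of freedom of the quasi-likelihood test (9.62), residual and prior together.

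**Figure D3:**
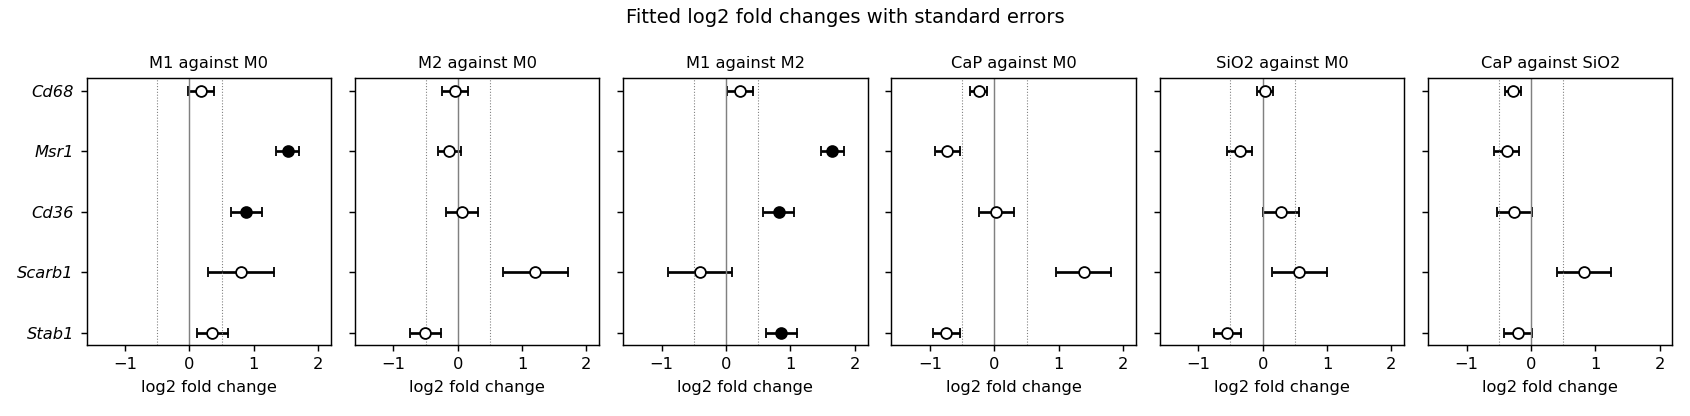
Fitted log2 fold changes (points) with standard errors (bars) of the 5 testable receptor genes in the 6 comparisons, with filled points for called genes and dotted lines at a log2 fold change of 0.5 in either direction. Msr1 and Cd36 are called in M1 against M0, these and Stab1 in M1 against M2, and none in the rod comparisons.

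The order of group means was M1, M0, M2, SiO2 and CaP for Msr1 and also for Stab1. Cd36 descended in the order M1, SiO2, M2, CaP and M0, Cd68 in the order M1, SiO2, M0, M2 and CaP, and Scarb1 in the order CaP, M2, M1, SiO2 and M0. Among the neighbours in these orders that were compared with each other, only M1 and M0 for Msr1 differed by the test.

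Mertk, Axl and Timd4 were near the limit of detection. Mertk had 5, 4 and 1 counts in M0, 1, 2 and 1 in M1, 7, 3 and 35 in M2, 6, 0 and 1 with CaP and 3, 0 and 2 with SiO2. The 35 counts came from the deepest library, and relative to depth the M2 libraries were at 0.477, 0.394 and 0.5 CPM against 0.131, 0.26 and 0.116 CPM in M0. All M2 libraries thus lay above all M0 and M1 libraries. An exact two-sided permutation test gave p = 0.1, the smallest that 3 against 3 libraries allow. The lowest M2 library, replicate 2, had 3 counts, and the highest M0 library, replicate 2, had 4. Libraries did not overlap for 15.2% of tested genes in M2 against M0 and 29.4% in M1 against M2. Mertk was not among the tested genes. Without the filter on low counts edgeR gave a log2 fold change of 1.58 ± 0.66 for M2 against M0 (adjusted p = 0.304) and -2.15 ± 0.82 for M1 against M2 (adjusted p = 0.0872), and neither was called.

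Axl had 7 counts in all, in 5 libraries, with at most 2 in any of them. Timd4, the phosphatidylserine receptor of resident macrophages, had 2 counts in 2 libraries. Of the other scavenger receptors, Cd163 had 6 counts, of which 5 were in M2 replicate 3, and Olr1, the receptor for oxidised lipoprotein also known as LOX-1, had 5 counts, all in M2. A count of 0 allows up to 3 counts of the total, and these limits cover counting error only. Differences between the groups were not detectable at this depth for Axl, Timd4, Cd163 and Olr1.

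**Figure D4:**
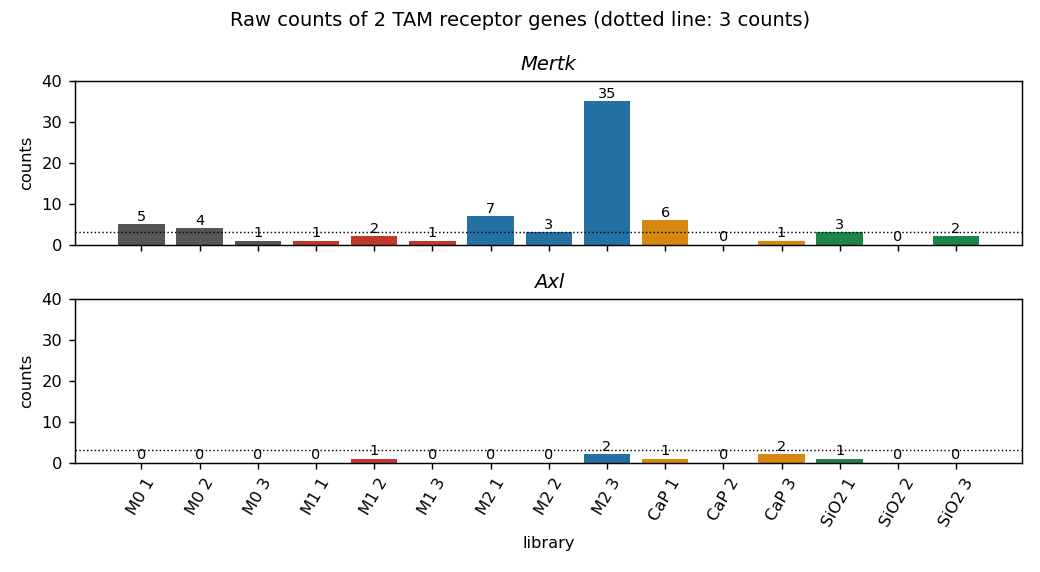
Raw counts of Mertk and Axl in each of the 15 libraries, coloured by group, with a dotted line at 3 counts. Mertk exceeds 3 counts in 5 libraries, including 35 counts in M2 replicate 3, and Axl stays at 2 or below.

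Other receptors of both kinds were then examined. Of 12 further scavenger receptors, 5 could be tested, and Cd14 and Marco rose in M1 against M0. Cd14, the co-receptor for LPS, went from 280.4 ± 32.1 to 1400 ± 113 CPM (SD, n = 3), a log2 fold change of 2.32 ± 0.14 (edgeR adjusted p = 9.35e-08), and fell to 43.8 ± 1.09 CPM in M2 (-2.68 ± 0.14, edgeR adjusted p = 8.29e-08). Marco, a class A receptor for particles and bacteria, was at 1.46 to 2.81 CPM in M1 and at 0 to 0.325 CPM in M0 (log2 fold change 4.36 ± 0.73, edgeR adjusted p = 0.00107). In M2 it had at most 0.0681 CPM. Marco had a count in 9 of 15 libraries, with at most 33 in any, and was not tested in the rod model, which held no M1 libraries. It passed the filter on low counts through M1, the group where it was high, so the filter favoured this call. The median log2 fold change of the 5 testable genes, Marco included, was -0.47 in M1 and -0.85 in M2, beside -0.01 and 0.07 over all genes.

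Among 12 further receptors and bridging proteins for dying cells, 6 could be tested. Itgb5 and Itgav, which pair as an integrin that binds Mfge8, fell in M1 against M0, with log2 fold changes of -0.97 ± 0.20 and -0.94 ± 0.25 (edgeR adjusted p = 0.00528 and 0.022). The call of Itgav held in 2 of 6 fits with 1 library left out. In M2 against M0 Itgb5 fell (log2 fold change -0.97 ± 0.20, edgeR adjusted p = 0.0135, 4 of 6 fits), and Havcr2, the phosphatidylserine receptor TIM-3, rose from 5.18 ± 1.14 to 14.0 ± 1.77 CPM (1.47 ± 0.26, edgeR adjusted p = 0.00483). Mfge8, the bridging protein, was at 33.6 ± 14.5 CPM in M1 and 99.6 ± 47.2 CPM in M2 (M1 against M2 -1.57 ± 0.45, edgeR adjusted p = 0.0289, 2 of 6 fits). The median of the 6 genes was -0.49 in M1 and 0.12 in M2. The bridging proteins of Mertk and Axl named above were scarce, since Gas6 had at most 12 counts and Pros1 at most 3 in any library. Tyro3, the remaining receptor of the family of Mertk and Axl, had at most 13.

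Of 8 genes of the engulfment machinery, 6 could be tested. Dock1, an exchange factor that activates Rac1, fell in M1 against M0 (log2 fold change -1.42 ± 0.32, edgeR adjusted p = 0.00928, 4 of 6 fits), and Elmo2, its partner, rose in M2 against M0 (1.58 ± 0.41, edgeR adjusted p = 0.0488, 2 of 6 fits). All 4 genes that restrain engulfment or shed receptors were tested. Cd47, the signal that restrains engulfment through Sirpa, rose in M1 from 63.8 ± 5.55 to 131.9 ± 1.35 CPM (1.05 ± 0.13, edgeR adjusted p = 0.000116), and was higher in M1 than in M2 (0.90 ± 0.13, edgeR adjusted p = 0.000315). Sirpa was lower in M1 than in M2 (-0.91 ± 0.20, edgeR adjusted p = 0.00737).

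Lipid handling after uptake was represented by 12 genes, of which 10 were tested with the polarized groups. In M1 against M0 the sterol exporter Abcg1 fell (log2 fold change -1.32 ± 0.39, edgeR adjusted p = 0.0358, 2 of 6 fits). Abca1, a second exporter, fell in M2 against M0 (-1.44 ± 0.27, edgeR adjusted p = 0.00862, 4 of 6 fits). Beside Cd163, the haptoglobin gene Hp went from 28.3 ± 2.37 CPM in M0 to 0.796 ± 0.236 CPM in M2 (-5.34 ± 0.24, edgeR adjusted p = 1.21e-08). The iron exporter Slc40a1 fell in M2 against M0 (-2.02 ± 0.48, edgeR adjusted p = 0.0314, 1 of 6 fits). Both were higher in M1 than in M2, with log2 fold changes of 5.04 ± 0.24 for Hp and 2.13 ± 0.49 for Slc40a1 (edgeR adjusted p = 4.88e-09 and 0.00848).

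In CaP against M0, 34 genes of these 6 lists were tested and 0 were called by edgeR, where 0.409% of all genes were. DESeq2 called 6 of the 34, where it called 3.9% of all genes. They are named here after their values were seen. Higher with CaP were Hmox1, the haem-degrading enzyme (DESeq2 log2 fold change 1.14 ± 0.27, adjusted p = 0.00249), and Elmo2 (1.20 ± 0.37, DESeq2 adjusted p = 0.0368). The libraries of Elmo2 overlapped, at 10.8 to 26.2 CPM with CaP and 6.55 to 12.3 CPM in M0. Lower were Itgb5 (-0.94 ± 0.23), Dock1 (-1.08 ± 0.28), the protease Adam10 (-0.91 ± 0.25) and Abcg1 (-1.07 ± 0.31), with DESeq2 adjusted p from 0.00392 to 0.0252. The edgeR adjusted p of the 6 genes was between 0.0842 and 0.146. In SiO2 against M0 and in CaP against SiO2, 0 of the 34 genes were called by either tool (0.0602% and 0.0241% of all genes with edgeR).

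**Figure D5:**
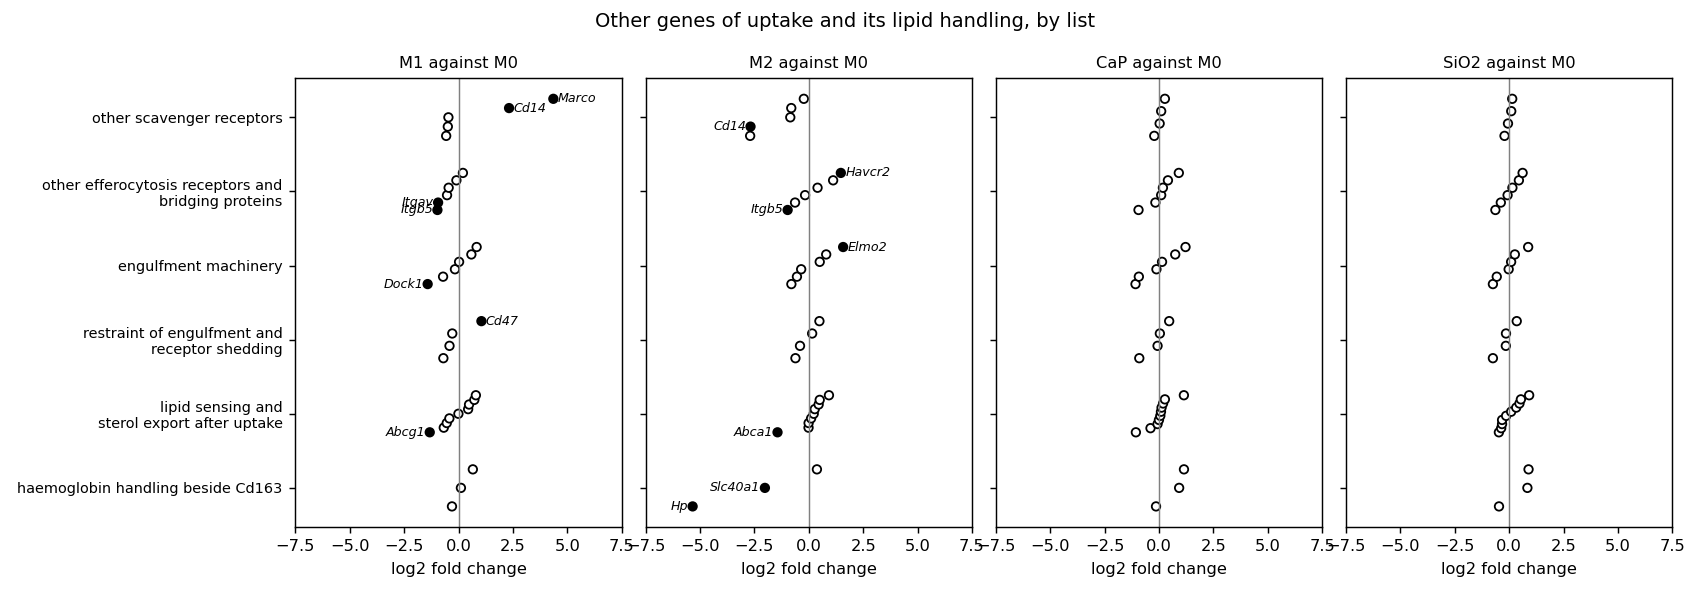
Log2 fold changes of testable genes of the 6 lists in 4 comparisons with M0, with 1 point per gene and filled, named points for genes called by edgeR. Genes called by edgeR are present for M1 and M2, and none for CaP or SiO2, where DESeq2 called 6 for CaP.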

How the data were processed

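Counts per gene were analysed for 15 MH-S libraries, which the labels place in 5 groups of 3. Per the labels and the study's methods, the authors made Smart-seq2 libraries of poly-A RNA and processed the reads with nf-core/rnaseq 3.14.0 (STAR and Salmon, GRCm39, Ensembl 114). The deposited counts are whole numbers without normalization, which may be rounded Salmon estimates, and 0 columns were left unused. Symbols were given to 51487 of 78317 identifiers from GENCODE vM21, which also gave exon lengths.

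Counts were tested in R 4.3.3 with edgeR 4.0.16 (filterByExpr by group, TMM, quasi-likelihood test, Benjamini-Hochberg over all genes tested), in 1 model of all 15 libraries for the polarized groups and 1 of the 9 M0, CaP and SiO2 libraries for the rods. The members, the gene lists and the tests were chosen with earlier results of these data known. All members are named, and of each list at most the 4 called genes with the largest change and without overlap between libraries. In CaP against M0 the 6 list genes called by DESeq2 are named as well, whether or not their libraries overlapped. The result of 1 list gene is not reported here. DESeq2 1.42.0, other scalings, filters, models and sets of libraries were alternatives. DESeq2 was run with its default tuning of independent filtering (0.1). A tuning of 0.05 was tried after the results had been seen and is listed as an added alternative, and leaving out 3 libraries together and the legacy quasi-likelihood of edgeR were also added then. The fits were also run on simulated counts with 200 changed genes, for M2 against M0 and CaP against M0. No result here rests on that run, and its libraries were drawn independently, without outlying libraries such as M0 replicate 3.

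Replicate numbers did not pair the samples in general: the correlation of deviations of same-numbered libraries ranged from -0.624 to 0.439. In M1 against M0 it was 0.127 to 0.293, and a replicate block kept the called receptor genes there at 2.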

Additional observations from a re-analysis of the deposited data

How the results depend on the processing

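The low genes had few counts, and 5 of the 10 receptor genes could not be tested. With 1 library left out, the count of called receptor genes was 1 to 2 in M1 against M0 and also in M1 against M2, and 0 to 1 in CaP against M0. Without a filter, Scarb1 was called in M2 against M0 (count 1, edgeR adjusted p = 0.000604) and in M1 against M0 (count 3, 0.0445). Over all genes, 1141 and 3394 of 52647 were called in these 2 unfiltered fits. In CaP against M0 DESeq2 called 2 with its default independent filtering and 3 with the filtering tuned to 0.05, a setting made after the results had been seen, so the default stands as the DESeq2 result. The cause was not tested.

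Replicate block: the log2 fold change of Cd36 in CaP against M0 was -0.012, and Cd36 lost its call in M1 against M2 (edgeR adjusted p = 0.0536). No other call of a receptor gene changed. With 1 library left out, uncalled values crossed 0: in M2 against M0 Msr1 (-0.282 to 0.027), Cd36 (-0.084 to 0.168) and Cd68 (-0.353 to 0.157), in CaP against M0 Cd36 (-0.219 to 0.285), in SiO2 against M0 Cd68 (-0.019 to 0.134), in CaP against SiO2 Cd36 (-0.509 to 0.003). Without M0 3, M2 2 and SiO2 2 together, 4 receptor genes were called in M1 against M2, Cd68 being added (edgeR adjusted p = 0.032). Calls also rose over all genes there, to 5264 of 17462, from 2679 of 16654 in the main fit. Stab1 lost that call without a filter (0.0759) and with only the 6 libraries compared (0.122).

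Counts over all genes moved by more than 1.5 times. M1 against M0 went from 2342 to 3612 without the 3 libraries and 1511 with 1 left out. M2 against M0 went from 687 to 1141 unfiltered, 98 with 6 libraries and 316 to 1361 with 1 left out. M1 against M2 went from 2679 to 5264 without the 3, 4407 unfiltered, 1377 with 6 and 1765 to 4271 with 1 left out. CaP against M0 went from 68 to 648 and 673 (DESeq2), 109 with 15 libraries, 178 unfiltered, 7 with 6, 28 with the block, 16 without the 3 and 13 to 743 with 1 left out. SiO2 against M0 went from 10 to 129 and 134 (DESeq2), 44 with 15, 17 unfiltered, 0 to 5 with 1 left out and 1 with 6, with the block or without the 3. CaP against SiO2 went from 4 to 16 (DESeq2), 8 unfiltered, 2 with a minimum of 10 counts or 6 libraries and 1 with the block, without the 3 or at the lowest with 1 left out.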
